A study of Rattus norvegicus with 48 samples.

Results

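The 433 genes described here were each raised more than 4-fold, on the CPM + 0.5 scale, in the same pair of subcutaneous fat libraries. The pair is replicates 4 and 6 of the late exercised rats. The 433 genes were chosen from 23481 measured genes, of which they make up 1.84%. For each gene, log2(CPM + 0.5) was taken, where CPM is the gene's count scaled to the library total. The excess of a library is that value minus the median over the 22 other subcutaneous libraries. Genes were kept when the excess was over 2 in both libraries of the pair. They also had to show 2 or less in the subcutaneous library of early control replicate 5. Genes over 2 in both the visceral libraries of early exercise replicate 3 and early control replicate 5 were left out. The excess there was measured against the other 22 visceral libraries. The excess values of the pair and of these 3 capped libraries therefore chose the genes, and they are given below as a description.

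Subcutaneous and visceral fat hold adipocytes together with vessels, nerves, connective tissue and immune cells. Both kinds of depot can adjoin or enclose other structures, such as lymph nodes, muscle, skin glands or the lining of the body cavity. RNA of a whole piece of fat is a sum over all the cells it held, so genes of a minor constituent move together from piece to piece. In such bulk samples, fewer cells of a type and less RNA per cell cannot be told apart. The files identify genes by Ensembl ID only, and 0 of the 23481 IDs could be paired with a gene name. The tissue that the 433 genes mark was therefore not analysed, the 36 marker lists drawn up for that question were not applied, and the labelled tissue was not checked against its defining markers. Genes are described below by their values, and only 2 of them by ID.

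The study asked how the time of day of exercise affects fat gain in male adolescent rats, whose strain the labels do not give. PolyA RNA was sequenced from 4 groups of 6 rats, in subcutaneous fat (SAT) and in visceral fat (VAT). Late active phase exercise (LAE) was set against its sedentary control (LAC), both at zeitgeber time 23, and early active phase exercise (EAE) against its sedentary control (EAC), both at zeitgeber time 13. All groups were sampled on postnatal day 61, which was 24 h after the last exercise session in the trained rats. The 48 libraries held 13163675 to 17890033 counts, with a median of 15576425. SAT LAE libraries 4 and 6 had 16975 and 17180 genes with at least 1 count, against 14653 to 16587 in the other 22 SAT libraries. VAT EAE library 3 and VAT EAC library 5 had 17034 and 16864 such genes, against 15959 to 16455 in the other 22 VAT libraries. In SAT LAE libraries 4 and 6, 1051 genes (4.48% of those measured) were raised by an excess over 2 in both, and 204 (0.869%) lay more than 2 below the median in both. Of the 1051 raised genes, 260 were also over 2 in SAT EAC library 5 and 374 were over 2 in both VAT libraries. Those 2 lists shared 16 genes, which is 6.15% of the first and 4.28% of the second. The 433 genes are the 41.2% of the raised genes that neither list holds.

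The summed level of the 433 genes was highest in the pair, for which the genes were chosen. It was 27749 CPM in SAT LAE library 4 and 24124 CPM in library 6, or 2.77% and 2.41% of their counts. The other SAT LAE libraries, 1, 2, 3 and 5, held 6898, 3527, 3835 and 4726 CPM. In SAT LAC the sum had a lowest, median and highest value of 3350, 3727 and 4705 CPM, in SAT EAE 2909, 3785 and 5222 CPM, and in SAT EAC 2796, 3778 and 6426 CPM. The rule asked for high values in the pair, so its gap to the other SAT libraries is a description and no test. The remaining LAE libraries lay among those of the other groups except library 1, the highest of the 22.

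In the visceral fat of the late exercised rats the genes were at their usual level. VAT LAE libraries 4 and 6, which carry the same replicate numbers as the pair, had sums of 2993 and 3114 CPM. The median excess was 0.00 in each. The labels do not state outright whether equal numbers in both depots mark the same rat. Same-numbered SAT and VAT libraries of a group correlated best with their own number in 13 of 24 pairs, with a median r of 0.14. Whether such libraries come from the same rat was not tested. The lowest, median and highest sums were 2214, 3001 and 3123 CPM in VAT LAE and 2303, 2698 and 3726 CPM in VAT LAC. They were 2297, 2713 and 5900 CPM in VAT EAE and 2257, 2710 and 4753 CPM in VAT EAC. The highest values in the early groups belonged to VAT EAE library 3 and VAT EAC library 5, and the next highest in those groups were 2913 and 3232 CPM.

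**Figure D1:**
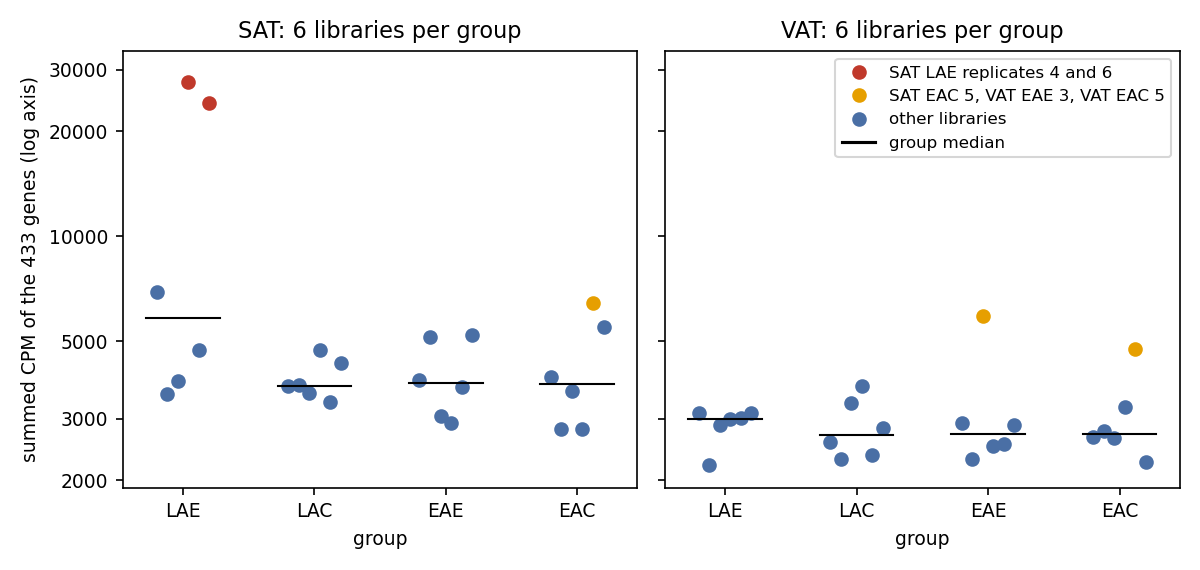
Summed CPM of the 433 genes in each library (log axis), by group, with SAT on the left and VAT on the right. Points are libraries (6 per group), bars are group medians, red points are SAT LAE replicates 4 and 6, and orange points are the 3 libraries whose values the rule limited. The pair sits at 27749 and 24124 CPM, above all other libraries, which reach 6898 CPM.

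The genes differed widely in their level in ordinary subcutaneous fat. The median level over the 22 other SAT libraries was 0 CPM for 111 of the 433 genes (25.6%, against 31.6% of all measured genes), above 0 and under 1 CPM for 127, from 1 to under 10 CPM for 134, and 10 CPM or more for 61. Their mean level over the pair ran from 1.70 CPM to 7755 CPM, with quartiles of 5.01, 11.1 and 36.9 CPM. In 3 genes no count was found in any of the other 22 SAT libraries, and in 5 genes none was found in any VAT library. A count of 0 allows a level of up to 0.168 to 0.228 CPM in a single library, taking 3 counts of its total as the limit.

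The counts were concentrated in few genes. The 10 genes with the highest CPM in the pair took 51.9% of the 433 genes' counts in SAT LAE library 4 and 45.2% in library 6. One gene, ENSRNOG00000030625, took 33.8% and 25.5%. These are shares of counts, since gene lengths were not available for a comparison of levels between genes.

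ENSRNOG00000030625 was a well-expressed gene of both depots that stood far higher in the pair. It had 1990, 916, 475, 9367, 823 and 6144 CPM in SAT LAE libraries 1 to 6. Its lowest, median and highest levels were 678, 833 and 895 CPM in SAT LAC, 584, 841 and 1439 CPM in SAT EAE, and 485, 812 and 1811 CPM in SAT EAC. Libraries 4 and 6 stood above all others and LAE library 1 came next. LAE libraries 2 and 5 lay within the range of the early groups, and LAE library 3 was the lowest of all. The VAT libraries ran from 381 to 579 CPM without a high library.

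ENSRNOG00000048452, the gene with the largest value of its smaller excess in the pair, was close to off elsewhere. It had 486 counts (29.4 CPM) in SAT LAE library 4 and 372 counts (23.7 CPM) in library 6. Its highest level in the other 22 SAT libraries was 0.256 CPM, from 4 counts in SAT EAE library 4, and 0 counts were found in all 6 SAT LAC and all 6 SAT EAC libraries. In VAT the highest level was 0.429 CPM, from 7 counts in EAE library 3, and 0 counts were found in all 6 LAE libraries. The gene that followed it by excess had another pattern, with 21.7 and 25.3 CPM in the pair but 0 to 18.4 CPM in the other 22 SAT libraries and 0 to 16.7 CPM in VAT. That gene was at 0 in many libraries of every SAT group and above 10 CPM in others, so the size of its excess rests on a median of 0.

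The size of the excess ran without a break down to the threshold. In SAT LAE library 4 it went from 2.00 to 6.31 with a median of 2.70, and in library 6 from 2.00 to 8.34 with a median of 2.68. The smaller of a gene's 2 values was over 4 in 10 genes, over 3 in 92, and between 2 and 2.5 in 235. The 3 genes just inside the threshold had a smaller excess of 2.0005, 2.0005 and 2.0008, and the 3 just outside it 1.997, 1.994 and 1.994. For the limit on SAT EAC library 5, the 3 genes just inside had an excess of 1.99, 1.99 and 1.98 there, and the 3 just outside 2.00, 2.00 and 2.01.

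Both libraries of the pair held the genes in broadly similar amounts, apart from a group that was much higher in library 6. Across the 433 genes the log2 levels of the 2 libraries had a Spearman rho of 0.82 and the excesses a rho of 0.51 (Pearson r = 0.41). These values are across genes, which share the libraries and their depth. The levels were within 2-fold of each other in 381 genes (88.0%). In 45 genes library 6 was over 2-fold higher, and 44 of those had a median of 0 in the other 22 SAT libraries. Their sum was 1232 CPM in library 6 and 173 CPM in library 4. The same 45 genes were mostly raised in VAT EAE library 3, where 41 of them had an excess over 1, and had a median excess of 1.16 in VAT EAC library 5, where 25 were over 1. The gene with the widest gap had 162 CPM in library 6 and 3.56 CPM in library 4. Only 7 genes were over 2-fold higher in library 4, and the widest gap there was 39.1 CPM in library 4 against 2.17 CPM in library 6.

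**Figure D2:**
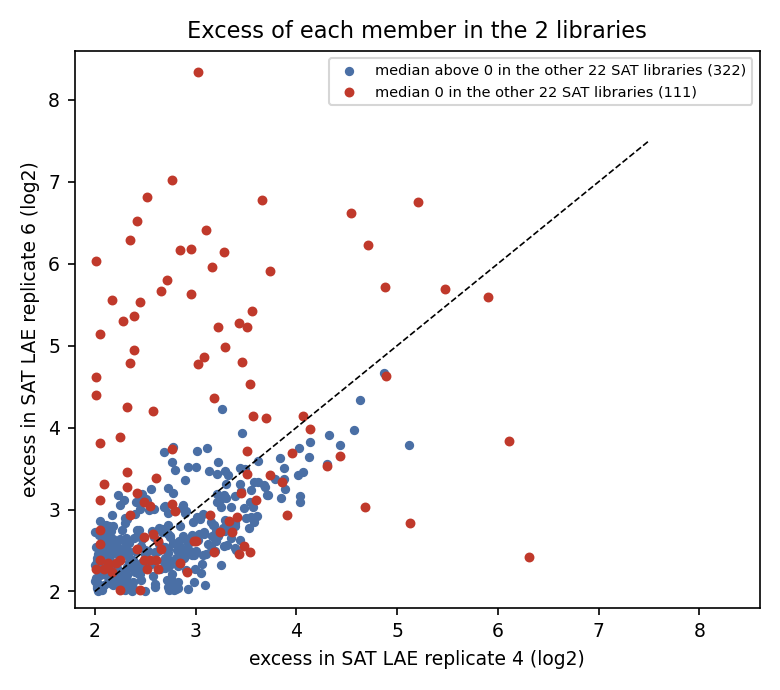
Excess (log2) of each of the 433 genes in SAT LAE replicate 4 (horizontal) and replicate 6 (vertical), with the line of equal excess dashed. Red points are the 111 genes with a median of 0 in the other 22 SAT libraries, blue points the rest. Most genes lie near the line between 2 and 4, while a set of red points rises above it, among them the 45 genes over 2-fold higher in replicate 6.

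The working description of the genes as confined to the pair did not hold for all of them. In 398 of the 433 genes no other SAT library had an excess over 2, and in 420 both libraries of the pair lay above all 22 others. The rule asked for high values in the pair and limited SAT EAC library 5, so these counts are a description. No share over all measured genes is given beside them. However, 35 genes were over 2 in at least 1 other SAT library, of which 21 were so in 1 library, and 6 in 6 or more. In 13 genes at least 1 other SAT library reached the pair. The third gene by level illustrates this, with 936 and 1038 CPM in LAE libraries 4 and 6 but 1407, 140, 677 and 1465 CPM in LAE libraries 1, 2, 3 and 5. That gene varied widely in the other groups too. It ran from 151 to 814 CPM in SAT LAC, 160 to 735 CPM in SAT EAE and 149 to 680 CPM in SAT EAC. Its VAT levels ran from 107 to 965 CPM, with 607 and 571 CPM in VAT LAE libraries 4 and 6. VAT LAE libraries 1, 2, 3 and 5 had 965, 107, 566 and 842 CPM. In VAT, 129 of the 433 genes were over 2 in at least 1 library.

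Smaller rises of the same genes were common in the 3 limited libraries. SAT EAC library 5 had a median excess of 0.71, and 171 genes (39.5%) were over 1 there. VAT EAE library 3 had a median excess of 1.32, with 251 genes (58.0%) over 1 and 116 (26.8%) over 2, where 2.76% of all measured genes were over 2. VAT EAC library 5 had a median excess of 0.91, with 203 genes (46.9%) over 1 and 8 (1.85%) over 2, where 2.22% of all measured genes were over 2. The rule left out genes over 2 in both VAT libraries, so the counts over 2 are shaped by the choice. Nothing is read from their distance to the shares of all genes. Only 53 of the 433 genes were at 1 or less in all 3 of these libraries, and 4 were at or below 0 in all 3. Those 53 include ENSRNOG00000030625 and held 12850 CPM in SAT LAE library 4 and 9329 CPM in library 6.

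A partial rise was also seen in other SAT libraries. The median excess was 0.33 in EAC library 6, 0.31 in EAE library 2, 0.27 in EAE library 6 and 0.23 in LAE library 1. The number of genes over 1 was 112, 112, 37 and 84 in these libraries. On a linear scale, the excess level of a gene in another library was also set against its mean excess level in the pair, in the 325 genes with at least 5 CPM there. The median share was 17.3% in VAT EAE library 3, 10.05% in VAT EAC library 5 and 9.94% in SAT EAC library 5. It was 4.34% in SAT EAC library 6, 4.199% in SAT EAE library 2, 4.03% in SAT LAE library 1 and 3.68% in SAT EAE library 6. No other library passed 1.69%, the value of VAT LAC library 4.

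The genes that rose in part in SAT EAC library 5 were mostly not those that rose in part in the 2 VAT libraries. An excess over 1 was found in SAT EAC library 5 alone for 113 genes (26.1%) and in both VAT libraries but not SAT EAC library 5 for 155 (35.8%). All 3 libraries passed 1 in 32 genes, 1 VAT library but not SAT EAC library 5 in 54, and 1 VAT library with SAT EAC library 5 in 26. Across the 433 genes, the excess in SAT EAC library 5 and the smaller of the 2 VAT values had a Spearman rho of -0.51, while the 2 VAT libraries had a rho of 0.76 with each other. SAT EAC library 5 had a rho of 0.80 with SAT EAC library 6 and of 0.79 with SAT EAE library 2. The rule left out genes high on either measure, which shapes these values. Over all 1051 raised genes, where neither limit applied, the first rho was -0.63. Those genes were still chosen for high values in the pair, which can shape that value too. Excesses within a depot also share the median subtracted from them, so all of these rho values are a description.

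**Figure D3:**
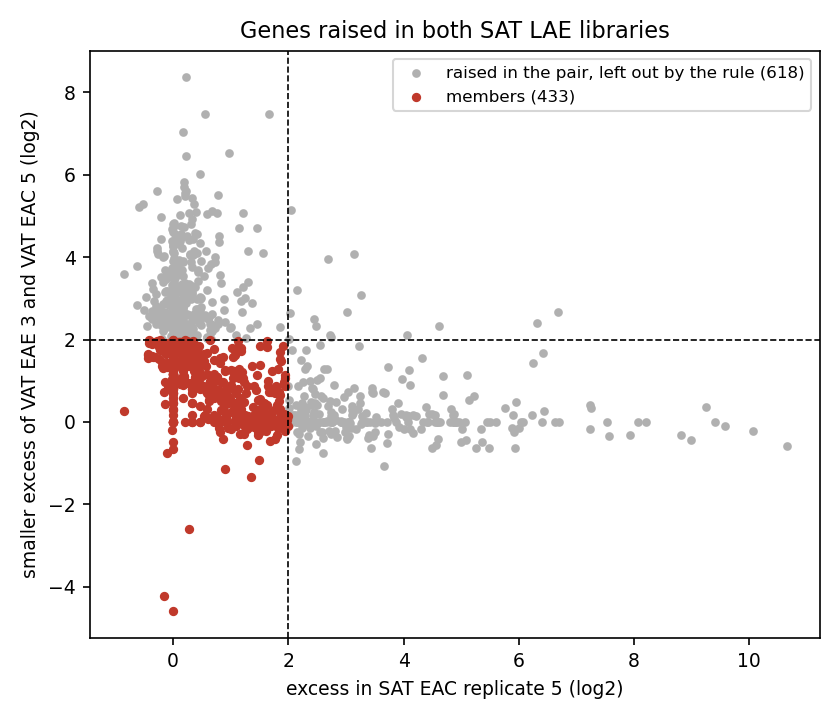
Excess (log2) in SAT EAC replicate 5 (horizontal) and the smaller excess of VAT EAE replicate 3 and VAT EAC replicate 5 (vertical) for the 1051 genes raised in SAT LAE replicates 4 and 6. Red points are the 433 genes and grey points the 618 that the limits at 2 (dashed) left out. Points run along both axes, with few genes high on both, and the red points fill the corner below both limits without a gap to the grey ones.

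The 113 genes near SAT EAC library 5 stood in a graded series of SAT libraries. Their median excess was 3.00 and 2.56 in SAT LAE libraries 4 and 6, 1.51 in SAT EAC library 5, 1.18 in EAC library 6, 1.09 in EAE library 2, 0.88 in LAE library 1, 0.64 in EAE library 6 and 0.39 in LAC library 6. VAT EAE library 3 had 0.23 and VAT EAC library 5 had 0.17. Of the 113 genes, 105 were higher in SAT LAE library 4 than in library 6, and their sums were 5057 and 3649 CPM.

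The 155 genes near both VAT libraries had the opposite balance. Their median excess was 2.39 and 2.75 in SAT LAE libraries 4 and 6, 2.08 in VAT EAE library 3 and 1.58 in VAT EAC library 5. No other SAT library had a median excess above 0.17, SAT EAC library 5 included at 0.11, and no other VAT library above 0.19. Of the 155 genes, 132 were higher in SAT LAE library 6, and their sums were 5139 CPM in library 4 and 6974 CPM in library 6. Among the genes of highest level, the fifth had 397 and 543 CPM in SAT LAE libraries 4 and 6, 184 CPM in VAT EAE library 3 and 152 CPM in VAT EAC library 5. The groups were formed from the excess in the 3 limited libraries, so their difference in those libraries is given by the choice, and no test was made between them.

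**Figure D4:**
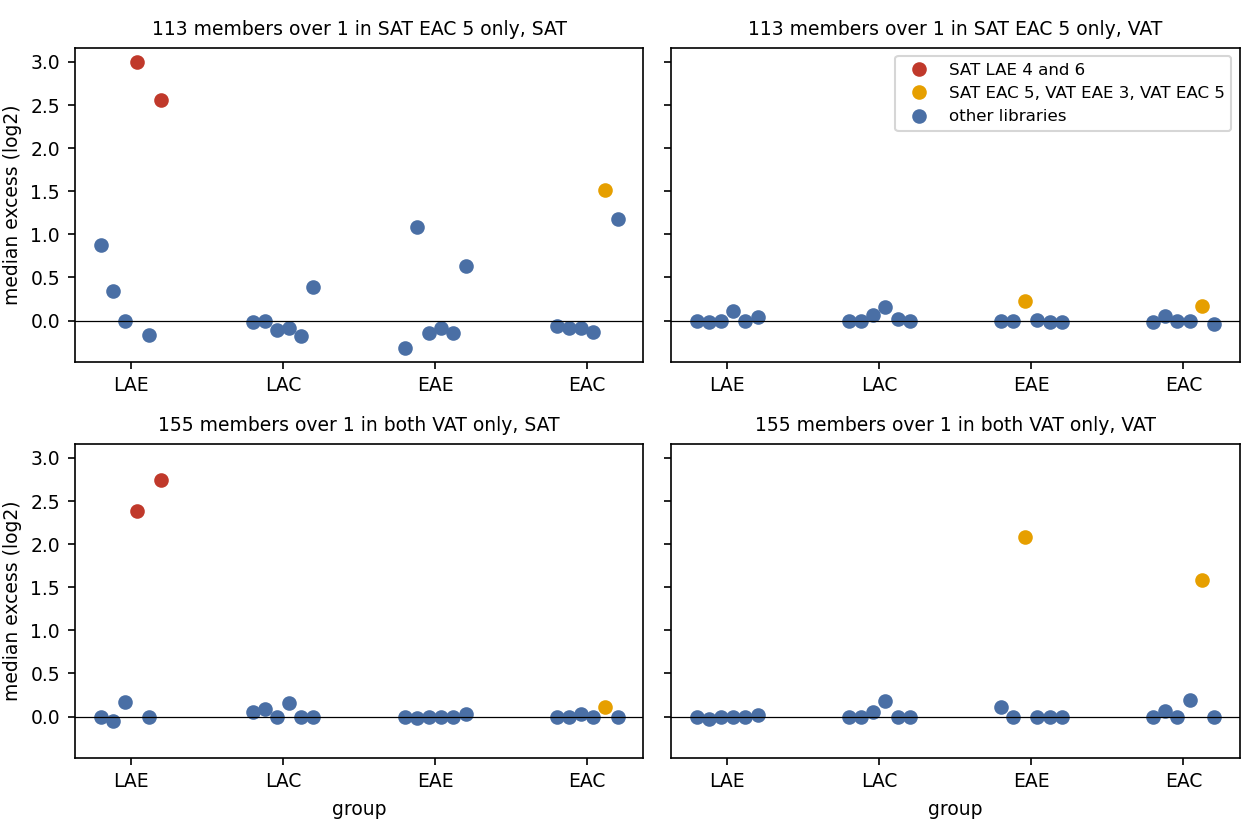
Median excess (log2) in each library of the 113 genes over 1 in SAT EAC replicate 5 only (top) and the 155 genes over 1 in both VAT libraries only (bottom), by group in SAT (left) and VAT (right). Red points are SAT LAE replicates 4 and 6, and orange points are the 3 limited libraries. The top genes show intermediate values in several SAT libraries and lie near 0 in VAT, and the bottom genes lie near 0 in all libraries except the pair and the orange VAT points.

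The comparison of late exercise with its sedentary control in SAT is the contrast the rule drew on. With all 24 SAT libraries in edgeR's quasi-likelihood test with Benjamini-Hochberg adjustment at 0.05, 291 of the 433 genes passed the filter on low counts. Of these, 140 were called higher and 0 lower, where 11.5% of all 14372 tested genes were called, 7.83% higher and 3.67% lower. Both libraries that chose the genes are in this test, so these counts restate the choice and nothing is read from them.

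Without SAT LAE libraries 4 and 6, the 4 other late exercised rats were set against the sedentary ones. Of 291 genes tested, 1 was called higher and 0 lower in SAT LAE against SAT LAC, beside 2.14% called of all 14505 genes tested (1.44% higher and 0.696% lower). DESeq2 called 3 of the 291 higher (1.03%), beside 7.93% called of all genes. When 1 of the 4 LAE libraries was left out, edgeR called 0 to 2, beside 0.341% to 3.67% of all genes. An unadjusted p under 0.05 was found for 19 of the 291 genes (6.53%), against 20% of all tested genes. The median log2 fold change of the 291 was 0.24, against 0.00 over all genes, and it was 0.06 without LAE library 1. As a description by group of genes, the median log2 fold change was 0.58 in the 93 tested genes over 1 in SAT EAC library 5 only, of which 0 were called. It was -0.00 in the 92 over 1 in both VAT libraries only, of which 1 was called. It was 0.41 in the 30 over 1 in all 3 limited libraries and 0.19 in the 32 over 1 in none of them. It was 0.36 in the 23 over 1 in SAT EAC library 5 and 1 VAT library, and 0.31 in the 21 over 1 in 1 VAT library but not SAT EAC library 5. These medians by group of genes were not taken without LAE library 1. That library had a median excess of 0.88 in the 113 genes over 1 in SAT EAC library 5 only.

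The gene called higher in that comparison had 7.44, 4.19, 6.00 and 7.86 CPM in SAT LAE libraries 1, 2, 3 and 5. Its lowest, median and highest levels in SAT LAC were 2.84, 3.86 and 5.26 CPM. All but LAE library 2 lay above every LAC library. The log2 fold change was 0.87 ± 0.20 (SE) and the adjusted p was 0.0299 with edgeR's quasi-likelihood test. The adjusted p was 0.0832, 0.0649 and 0.0695 without LAE library 1, 3 or 5. For ENSRNOG00000030625 the same comparison gave means of 1051 ± 654 CPM in SAT LAE (SD, n = 4) and 817 ± 79.3 CPM in SAT LAC (SD, n = 6). Its log2 fold change was 0.48 ± 0.36 (SE), with an edgeR adjusted p of 0.476, and it was -0.012 without LAE library 1.

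Exercise in the early phase was compared next. In SAT EAE against SAT EAC, 0 of 291 tested genes were called by edgeR, beside 0.0% of all genes. Of the 291, 2 (0.687%) had an unadjusted p under 0.05 with edgeR, against 1.94% of all genes. DESeq2 called 1 of the 291 lower (0.344%), beside 0.0345% called of all genes. The median log2 fold change of the 291 was -0.12, and it was 0.08 over the 276 genes tested when SAT EAC library 5 was left out.

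The same comparisons were made in visceral fat. In VAT LAE against VAT LAC, 0 of 234 tested genes were called by edgeR, beside 0.0% of all 13883 genes. An unadjusted edgeR p under 0.05 was found for 14 of the 234 (5.98%), against 11.2% of all genes. DESeq2 called 0, beside 0.238% of all genes. The median log2 fold change of the 234 was -0.08, against -0.00 over all genes. In VAT EAE against VAT EAC, 0 of 234 were called, beside 0.0% of all genes, and DESeq2 called 0. An unadjusted edgeR p under 0.05 was found for 9 of the 234 (3.85%), against 2.49% of all genes. The median log2 fold change of the 234 was 0.01. It was -0.12 over the 230 genes tested when VAT EAE library 3 and VAT EAC library 5 were left out. For ENSRNOG00000030625, VAT LAE averaged 414 ± 32.7 CPM and VAT LAC 465.9 ± 63.4 CPM (SD, n = 6 each), with a log2 fold change of -0.09 ± 0.10 (SE) and an edgeR adjusted p of 0.796.

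A few of the 433 genes differed between the late and early phase in sedentary rats. The rule asked for high values in 2 late SAT libraries and limited only early libraries. SAT EAC library 5 and VAT EAC library 5, which it limited, are in these comparisons. A gene that is high late could therefore enter through the rule, and the calls are given as a description. In SAT LAC against SAT EAC, 5 of 291 tested genes were called higher and 8 lower by edgeR, which is 4.47%. Of all genes tested, 8.56% were called (4.43% higher and 4.13% lower). DESeq2 called 6 higher and 19 lower, which is 8.59%, beside 13.1% of all genes. In VAT LAC against VAT EAC, 5 of 234 were called higher and 13 lower, which is 7.69%, beside 11.3% of all genes (5.39% higher and 5.96% lower). Both edgeR shares and the DESeq2 share lay below the background. Of 232 genes tested in both depots, 2 were called higher in both, 4 lower in both and 0 in opposite directions. The depots' controls come from the same groups of rats.

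The 2 genes called higher late in both depots changed by more than 10-fold, and their excess was over 1 in all 10 late SAT libraries outside the pair. Both were over 2 in 6 or more of the other 22 SAT libraries, so they were not confined to the pair. The first averaged 62.7 ± 8.89 CPM in SAT LAC and 2.03 ± 0.969 CPM in SAT EAC (SD, n = 6 each), without overlap. Its log2 fold change was 4.92 ± 0.28 (SE), with an edgeR adjusted p of 9.81e-11. In VAT it averaged 61.3 ± 10.9 CPM in LAC and 2.47 ± 0.771 CPM in EAC (SD, n = 6 each). The second ran from 53.3 to 68.0 CPM in SAT LAC and from 1.64 to 6.73 CPM in SAT EAC, a log2 fold change of 3.99 ± 0.23 (SE). Of the genes called lower in SAT, the one with the smallest p averaged 5.19 ± 0.667 CPM in LAC and 9.33 ± 1.86 CPM in EAC (SD, n = 6 each). Its log2 fold change was -0.88 ± 0.15 (SE), with an edgeR adjusted p of 0.000826.

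The median log2 fold change between phases was -0.38 over the 291 genes in SAT, against -0.00 over all genes, and -0.15 without EAC library 5. In VAT it was -0.28 over the 234 genes, against -0.01 over all genes, and -0.04 without EAE library 3 and EAC library 5. The tested genes also changed with the libraries left out, to 276 in SAT and 230 in VAT.

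The last comparison set the depots of sedentary rats against each other. It includes SAT EAC library 5 and VAT EAC library 5, which the rule limited. In VAT against SAT, 79 of 306 tested genes (25.8%) were called lower and 25 (8.17%) higher by edgeR. Over all tested genes 48.9% were called, 23.4% lower and 25.5% higher. Their median log2 fold change was -0.22, against -0.01 over all genes. Of those lower in VAT, the gene with the smallest p was nearly absent there. Its lowest, median and highest levels were 0, 0.158 and 0.721 CPM in VAT and 1.73, 6.39 and 14.7 CPM in SAT (n = 12 each), without overlap. Its log2 fold change was -5.07 ± 0.54 (SE), with an edgeR adjusted p of 5.88e-10. The corresponding gene among those higher in VAT had 1.90, 8.18 and 12.1 CPM in VAT and 0.333, 1.63 and 2.81 CPM in SAT, where the ranges met, with a log2 fold change of 2.35 ± 0.27 (SE). ENSRNOG00000030625 was called lower in VAT, with a log2 fold change of -0.79 ± 0.17 (SE) and an edgeR adjusted p of 0.000219. Without the 3 limited libraries, 79 of 280 tested genes (28.2%) were called lower in VAT and 24 (8.57%) higher by edgeR. Over all genes tested in that fit, 26.8% were called lower and 24.5% higher.

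**Figure D5:**
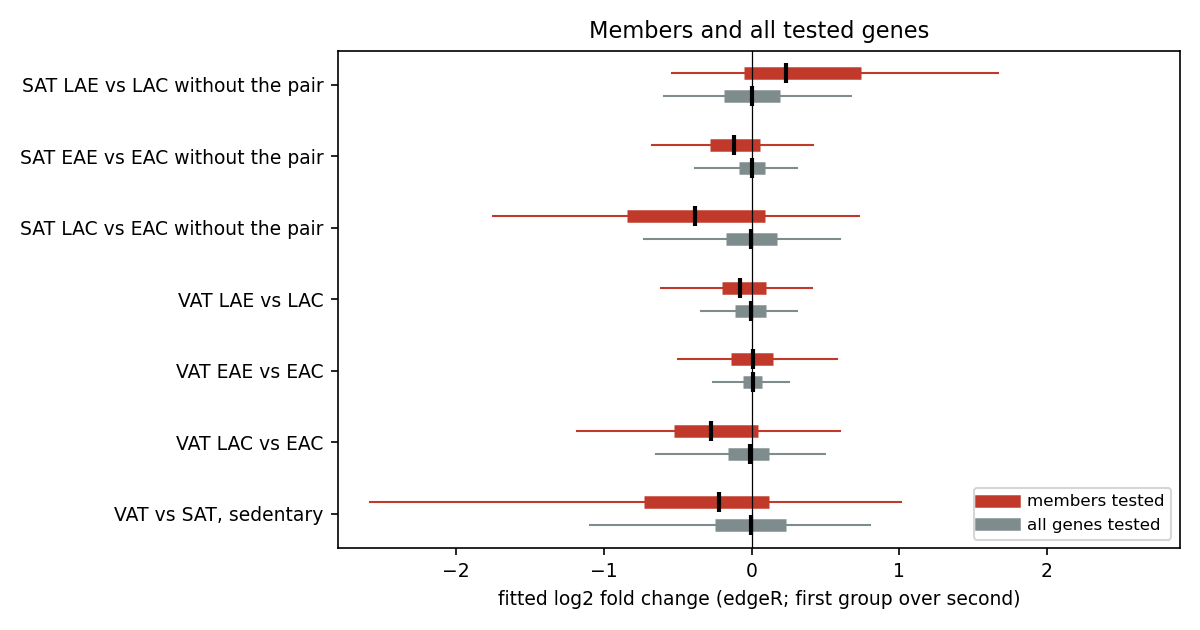
Fitted log2 fold changes (edgeR, first group over second) of the tested genes among the 433 (red) and of all tested genes (grey) in 7 comparisons, SAT LAE replicates 4 and 6 being left out of all SAT values. Black ticks are medians, thick bars the range between quartiles and thin lines the 5th to 95th percentile. The red medians run from -0.38 in SAT LAC against EAC to 0.24 in SAT LAE against LAC, and the grey medians lie near 0.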

How the data were processed

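PolyA RNA of 24 SAT and 24 VAT samples was sequenced as 50-nt single-end reads from RNA with an integrity number over 9, per the labels' protocols. The authors deposited a table of estimated counts for 23481 Ensembl gene IDs, all whole numbers. The submitters' processing notes name Salmon 1.4.0 and the build rn6, while the annotation release is not given in the sources used here. Library names in the labels tied each column to its sample. Replicates are separate rats of a group, per the labels' protocols.

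The genes, the marker lists and the tests were chosen with earlier results of these data known. CPM used column totals, and the pseudocount was 0.5 CPM. Tests used edgeR 4.0.16 in R 4.3.3 (TMM, filterByExpr, quasi-likelihood, one fit per depot or over both, Benjamini-Hochberg adjustment at 0.05 over all genes tested). Standard errors are the log2 fold change over the square root of F. DESeq2 1.42.0, other size factors, no filter, a replicate block and left-out libraries were the alternatives. The rule for named genes asked for symbols, of which 0 were found, so 2 IDs are named, and others are given by rank of level, of excess or of p. No sequence is shown because no ID could be matched. Floors cover counting error only. No library was a copy of another in its group: the chi-square of the counts, divided by its degrees of freedom, was 8.15 to 553 over 120 pairs. The fits and the rule were tested on simulated data.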

Additional observations from a re-analysis of the deposited data

Results flagged for a closer look

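In each group of 6 libraries, a library was listed when its gap to the nearest of the others was large for the range of the group. The limit was Dixon's criterion at the 95% level. The pair stayed in SAT LAE, so its other 4 libraries were not screened on their own. Chance lists about 1 in 20 groups where values are normally distributed, and 40 combinations of group and measure were tested. The median excess was 0 in many libraries and the counts over 2 were mostly small, so that rate need not hold for them. The 5 measures come from the same libraries and are not independent. VAT EAE library 3 and VAT EAC library 5 are among those whose values limited the choice of genes, so their listing is a description and no independent test. VAT EAE library 3 was listed by 3 of the 5 measures, with a summed level of 5900 CPM (next 2913 CPM), a median excess of 1.32 (next 0.00) and 116 genes with an excess over 2 (next 2). VAT EAC library 5 had a median excess of 0.91 (next 0.08). SAT LAC library 6 had a median excess of 0.13 (next 0) and VAT LAC library 4 of 0.16 (next 0.04). In SAT EAE library 2, 11 genes were over 2 (next 3), and in VAT LAE library 1, 3 genes were (next 1). VAT LAE library 2 was the lowest of its group, with a summed level of 2214 CPM (next 2875 CPM) and a median excess of -0.0065 (next 0). The cause was not tested for any of them.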

How the results depend on the processing

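The rule gave 383 genes with a pseudocount of 1 CPM (270 shared with the 433), 557 with 0.1 CPM (239 shared), 361 with TMM library sizes (329 shared), 433 with a mean of at least 1 CPM in the pair, and 264 with a threshold of 3 (92 shared), where the limits on the other libraries were also raised. With the replicate number as a block, the called genes among the 433 numbered 7 in SAT LAE against LAC with all libraries and 0 without the pair. Between depots, a block for group and number gave 96 calls, and in SAT LAC against EAC the block gave 3 higher and 7 lower. It moved no other count of calls by over 1.5 times. Across groups the block is not shown to pair samples. Same-numbered libraries of different groups correlated over 0.1 in 8 of 18 pairs in SAT and 9 of 18 in VAT. They correlated best with their own number in 6 of 18 and 3 of 18. Between depots, same-numbered libraries of a group correlated over 0.1 in 16 of 24 pairs, and best with their own number in 13 of 24. The main fit between depots had no block for the rat. Without the pair, SAT LAE against LAC had 3 calls with DESeq2 and 0 to 2 when 1 LAE library was left out. DESeq2 gave 1 call in SAT EAE against EAC and 25 in SAT LAC against EAC (6 higher, 19 lower). The fold change of ENSRNOG00000030625 ran from -0.012 without LAE library 1, a reversal, to 0.73 without LAE library 3 in SAT LAE against LAC, and it reversed to 0.10 in SAT EAE against EAC without EAC library 5 (-0.06 with it). The cause was not tested. Over all genes, calls in SAT LAE against LAC were 1654 with edgeR, 2718 with DESeq2 and 385 with the block. Without the pair they were 310 with edgeR, 1150 with DESeq2, 172 without the filter, 66 with the block and 50 to 539 with 1 LAE library left out. In SAT LAC against EAC they were 1241 with edgeR and 1905 with DESeq2, and in VAT LAE against LAC 0 and 33. The marker lists were not run, since no gene names were at hand. Levels near 1 count, which is 0.0760 CPM in the smallest library, limit the excess of genes with a median of 0.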
